A study of Mus musculus with 12 samples.

Results

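A set of 10 genes that textbooks list as direct targets of the transcription factor p53 was followed in cortical neurospheres of the mouse, with 10 of the 21738 probes of the array, 1 probe for each gene. The genes were taken by symbol, at a time when earlier results of these data were known. Those that stop the cell cycle or feed back on p53 were Mdm2, Cdkn1a, Ccng1 and Gadd45a. Those that act in cell death were Bax, Bbc3, Perp and Phlda3, and those of stress defence and p53 support were Sesn1 and Trp53inp1. The probes of 9 genes carried their symbol in the array annotation, and the Bax probe was named through its RefSeq accession. Of the 10 probes, 7 had at least 2 values in each of the 4 groups and could be tested. Ccng1, Sesn1 and Perp could not, and their values are given without a test.

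p53 is a tetrameric activator that is made all the time and destroyed all the time. The ubiquitin ligase Mdm2, itself a product of a p53 target gene, marks it for degradation, so the pair forms a negative feedback loop. DNA damage, loss of attachment, oncogene activity or stalled ribosome production break the loop, and p53 then raises genes that halt the cycle, repair DNA or kill the cell. In neural progenitors p53 is known as a brake on self-renewal and as the main trigger of death after damage.

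Neurospheres are balls of neural stem cells and their progeny that grow in suspension. Here they came from cortex of gestational day 12.5, kept without serum and with LIF, EGF and basic FGF. The 12 arrays formed 4 groups of 3: control cultures in growth medium alone and prominin cultures given an adenovirus that expresses prominin-1 (CD133), each at 24 h and at 108 h. No strain is named for the cortex, controls had no empty virus according to the treatment text, and GFP-positive spheres are mentioned in the design text. An effect of the virus and an effect of prominin-1 can therefore not be told apart, nor can fewer cells of a type and less RNA per cell. The treatment text of the prominin samples at 24 h also gives 108 h, and the time in their titles was used. Each array set 1 neurosphere RNA (Cy5) against a shared RNA of whole C57/Bl6 embryos of gestational day 12 (Cy3), without a dye swap.

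All values below are log2 ratios, read as neurosphere over embryo and shifted so that each array has its median at 0 (over probes with a value on all 12 arrays). A value of 0 is thus the median of these probes, not the embryo level. It can lie below the median of all measured probes of an array. On prominin 108 h replicate 1, Bax at 0.21 was at percentile 35.6 of those. Which dye stands on top is not stated. Some marker lists lay in the order that neurosphere over embryo would give. Neural stem and radial glia genes lay at 3.03 ± 0.62 (SD over 12 arrays of the list median) and astrocyte genes at 5.31 ± 1.16. Erythroid genes lay at −4.76 ± 1.85 and fibroblast genes at −5.00 ± 0.91. The neuron list did not follow that order. It lay at −1.91 ± 0.54, below the endothelium (−1.35 ± 1.44) and microglia (−0.70 ± 1.06) lists. The arrays of the 2 times differed in how much was measured: 10404 to 14465 probes had a value at 24 h and 15944 to 16598 at 108 h. Ratios of small whole numbers (1 to 10) made up 31.0 to 56.0% of values at 24 h and 3.28 to 9.60% at 108 h. Culture time and this difference between the arrays cannot be told apart. Prom1 lay at 0.66 and 1.72 in controls and −1.62 and −0.45 in prominin cultures at 24 h, and between −4.34 and −2.33 in controls and at −0.85 and −0.11 in prominin cultures at 108 h. At 24 h all 4 of its values were such small ratios, and at 108 h 1 of 5 was. The 2 prominin values at 108 h were above the 3 controls, and those at 24 h were below both controls. Whether replicates came from separate cultures is not stated, so a p-value here reflects only how these samples spread, which may be technical.

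Matches to the DNA motif of p53 near the start site can be shown for some of the members. RefSeq windows of 300 bases around the start sites (GRCm38.p6) were found for 8 of the 10 genes, 12 windows in all, and not for Perp and Trp53inp1. The half-site of the p53 consensus, which is 10 bases long and reads the same on both strands, was found in 6 of these 12 windows, 1 each for 6 genes (Cdkn1a, Mdm2, Gadd45a, Ccng1, Bax and Sesn1), and in 8.36% of all 32851 windows. Stretches of 60 bases are printed for Mdm2, the feedback gene, and for Cdkn1a and Gadd45a, whose values separated the 2 culture times below. They run 5′ to 3′ on the gene's strand, with half-sites in capitals. The Cdkn1a stretch lies at chr17:29090896-29090955 (plus strand, positions −83 to −24 from the upstream start site), the Mdm2 stretch at chr10:117710895-117710954 (minus strand, −196 to −137) and the Gadd45a stretch at chr6:67037408-67037467 (minus strand, −60 to −1).
Cdkn1a: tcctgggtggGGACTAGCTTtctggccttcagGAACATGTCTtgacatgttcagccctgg
Mdm2: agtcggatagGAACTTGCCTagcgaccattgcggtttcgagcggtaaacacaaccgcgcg
Gadd45a: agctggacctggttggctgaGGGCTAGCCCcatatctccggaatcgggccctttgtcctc

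Cdkn1a was the single member whose window held 2 half-sites at most 13 bases apart, an arrangement that 0.0731% of all windows had. A match is a run of letters and does not show that p53 binds there, in these cells or in others.

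Gadd45a, which encodes a small stress sensor that halts the cycle and takes part in DNA repair, had the highest mean ratio of the 10 genes over the arrays (4.51 ± 1.0, SD over 12 arrays), though Cdkn1a or Phlda3 was higher on some arrays at 108 h. It lay at 5.18, 6.30 and 5.91 in controls and 4.98, 4.66 and 4.97 in prominin cultures at 24 h. At 108 h it lay at 3.82, 3.30 and 4.0 in controls and 3.49, 3.26 and 4.24 in prominin cultures. All 6 arrays at 24 h were above all 6 at 108 h, and its lowest percentile among the probes of an array was 78.3. Its ratio as deposited, before centring, was above 0 on 12 of 12 arrays (0.893 to 4.44).

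Cdkn1a encodes p21, the inhibitor of cyclin-dependent kinases through which p53 stops cells before DNA replication. At 24 h it lay at −0.18 and 2.51 in controls, with 1 value missing, and at 2.04, 2.01 and 1.21 in prominin cultures. At 108 h it lay at 2.76, 6.71 and 3.21 in controls and 2.94, 3.52 and 3.87 in prominin cultures. The 6 values at 108 h were all above the 5 at 24 h, by a narrow gap between 2.51 and 2.76, and control 108 h replicate 2 stood far above the rest.

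Mdm2, the ligase of the feedback loop, was spread more widely than Gadd45a. It lay at −0.28, 2.68 and 1.60 in controls and 4.60 and 2.16 in prominin cultures at 24 h, with 1 prominin value missing. At 108 h it lay at 1.61, 0.43 and 3.49 in controls and 1.52, 2.34 and 2.97 in prominin cultures. Its groups overlapped at both times, and 2 of its 5 values at 24 h were ratios of small whole numbers.

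Ccng1 encodes cyclin G1, which brings a phosphatase to Mdm2. It had a value on 6 of 12 arrays: −0.96 in 1 control and −1.67 and 0.84 in 2 prominin cultures at 24 h, and −3.96, −3.39 and −7.68 in controls at 108 h. It was listed at exact 0, taken here as a code for no value, on all 3 prominin arrays at 108 h, so no difference between the cultures is given there. Its 3 values at 108 h were all below those at 24 h, of which 2 (−1.67 and 0.84) were ratios of small whole numbers.

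Phlda3, whose product keeps the survival kinase Akt from the membrane, was among the most even of the members within groups. It lay at 2.31, 1.59 and 1.93 in controls and 1.40, 1.30 and 1.88 in prominin cultures at 24 h. At 108 h it lay at 2.45, 1.57 and 1.60 in controls and 3.69, 3.53 and 2.73 in prominin cultures. The 3 prominin arrays at 108 h were above all 9 other arrays.

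Bbc3 encodes PUMA, which binds the survival proteins of the Bcl-2 family and frees Bax to act. At 24 h it lay at 1.05 and −0.49 in controls and 2.22 and 2.71 in prominin cultures, with 1 value missing in each group. At 108 h the values were 1.41, 1.10 and 0.78 in controls and 1.35, 0.21 and −1.06 in prominin cultures. The prominin values were above both control values at 24 h, whereas the groups overlapped at 108 h.

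Bax forms the pores in mitochondria through which death proteins escape. It was below the median of all measured probes on every array (percentile 11.6 to 40.2). It lay at −0.66, −0.68 and −1.35 in controls and −1.90, −0.19 and −0.69 in prominin cultures at 24 h, and at −0.74, −1.42 and −1.17 in controls and 0.21, −1.78 and −0.20 in prominin cultures at 108 h. No group stood apart. Its deposited ratio was below 0 on 12 of 12 arrays (−3.56 to −1.32).

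Perp, a membrane protein of cell junctions and of p53-dependent death, had the lowest mean ratio of the members (−5.87 ± 1.04, SD over 8 arrays with a value), although the lowest single value, −7.68, was that of Ccng1. Those values were −6.10 and −6.36 in controls and −4.88 in 1 prominin culture at 24 h, and −6.06 and −6.55 in controls and −3.73, −6.85 and −6.44 in prominin cultures at 108 h. It was within the lowest 2.85% of probes on each of these arrays. Perp is known above all from stratified epithelia.

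Of the remaining pair, Sesn1 encodes a sestrin, which restrains the growth kinase mTORC1, and was measured on 8 arrays. It lay at 1.31, −2.90 and −3.52 in controls and −2.94 in 1 prominin culture at 24 h, and at −2.84 and −0.12 in controls and −1.07 and −1.61 in prominin cultures at 108 h. Trp53inp1, which encodes a nuclear stress protein that promotes the phosphorylation of p53, was measured on all 12. It lay at −0.23, 0.53 and 0.67 in controls and 1.12, 1.40 and 0.67 in prominin cultures at 24 h, and at 0.69, 0.53 and 1.46 in controls and 2.67, 1.15 and 0.73 in prominin cultures at 108 h. Neither gene separated the groups.

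**Figure D1:**
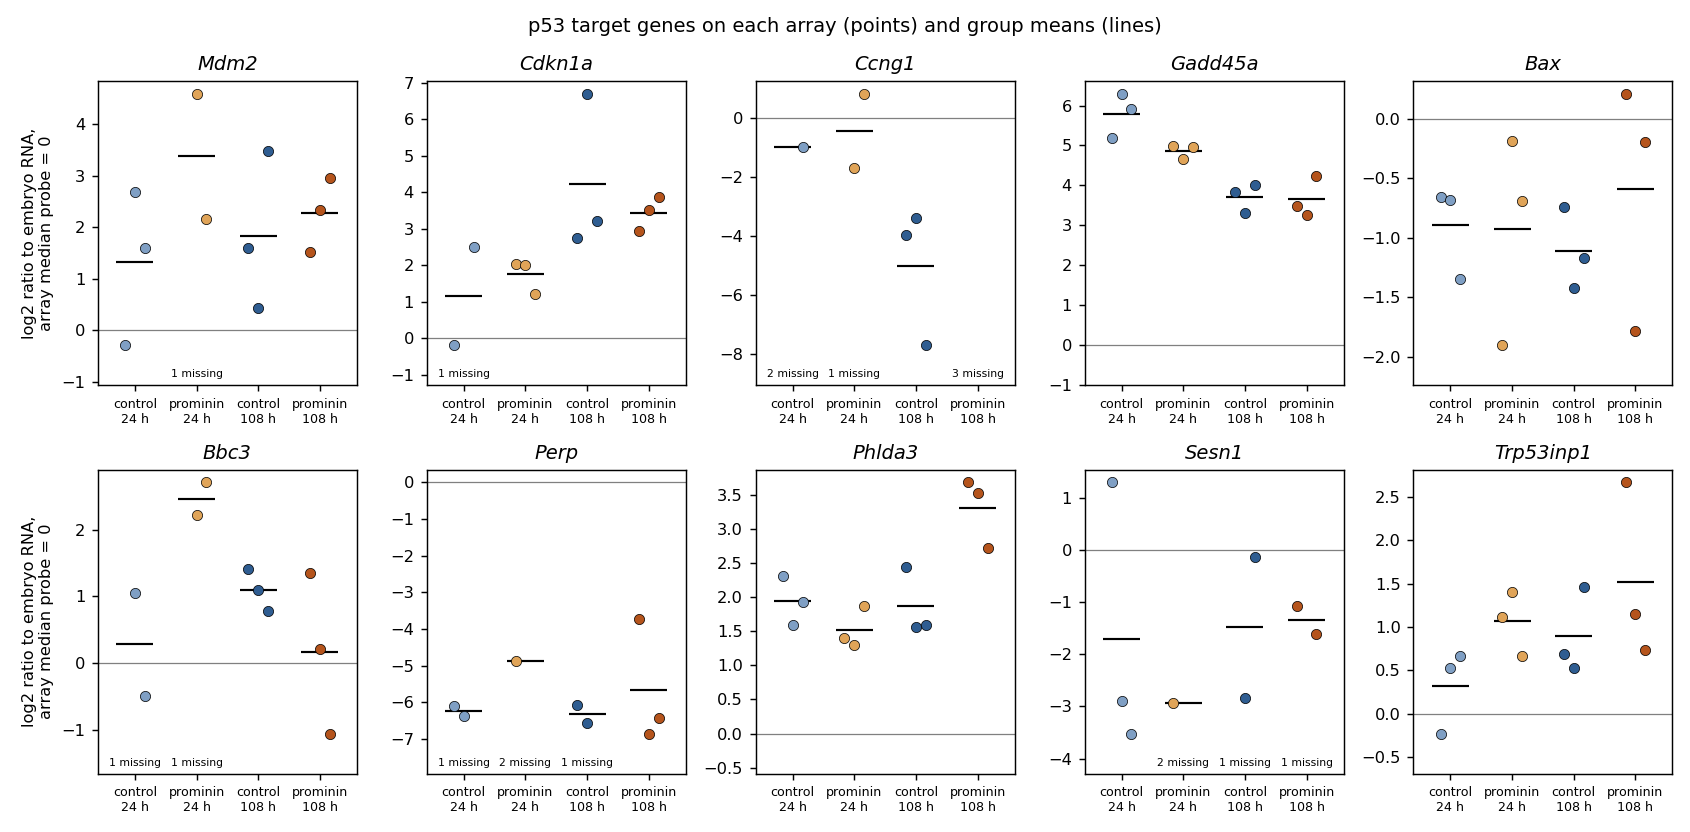
Centred log2 ratio to embryo RNA (vertical axis, scale differs between panels) of each of the 10 genes by group. A value of 0 is the median of the probes with a value on all 12 arrays. Each array is 1 point, with a line at the group mean and the number of missing values. Gadd45a at 24 h (4.66 to 6.30) lies above all its values at 108 h (3.26 to 4.24), and Phlda3 is highest in prominin cultures at 108 h (2.73 to 3.69).

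The members had no common level in these cells. By the median percentile over arrays, Gadd45a stood at 97.2, followed by Mdm2 (81.8), Cdkn1a (80.9) and Phlda3 (74.9), then Trp53inp1 (59.4) and Bbc3 (55.9), and at the low end Bax (23.7), Sesn1 (13.3), Ccng1 (11.1) and Perp (0.704). The ranges of Mdm2 (29.2 to 98.1), Cdkn1a (31.3 to 98.8) and Phlda3 (62.7 to 92.0) overlapped widely, so their order is not fixed. These are ratios to the embryo, not amounts of RNA. The residual SD within groups was 0.43 for Gadd45a and for Phlda3, 0.64 for Trp53inp1, 0.73 for Bax and 0.86 for Bbc3, below the 1.19 of the median probe tested. It was 1.38 for Mdm2 and 1.41 for Cdkn1a. Of the 10 members, 7 to 9 had a value on each array at 24 h and 8 to 10 at 108 h, where 47.9 to 66.5% and 73.3 to 76.4% of all probes had one. Trp53, the gene of p53 itself, lay between −6.43 and 1.29 on the 9 arrays where it had a value. It was not tested, since 1 control at 24 h had a value.

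**Figure D2:**
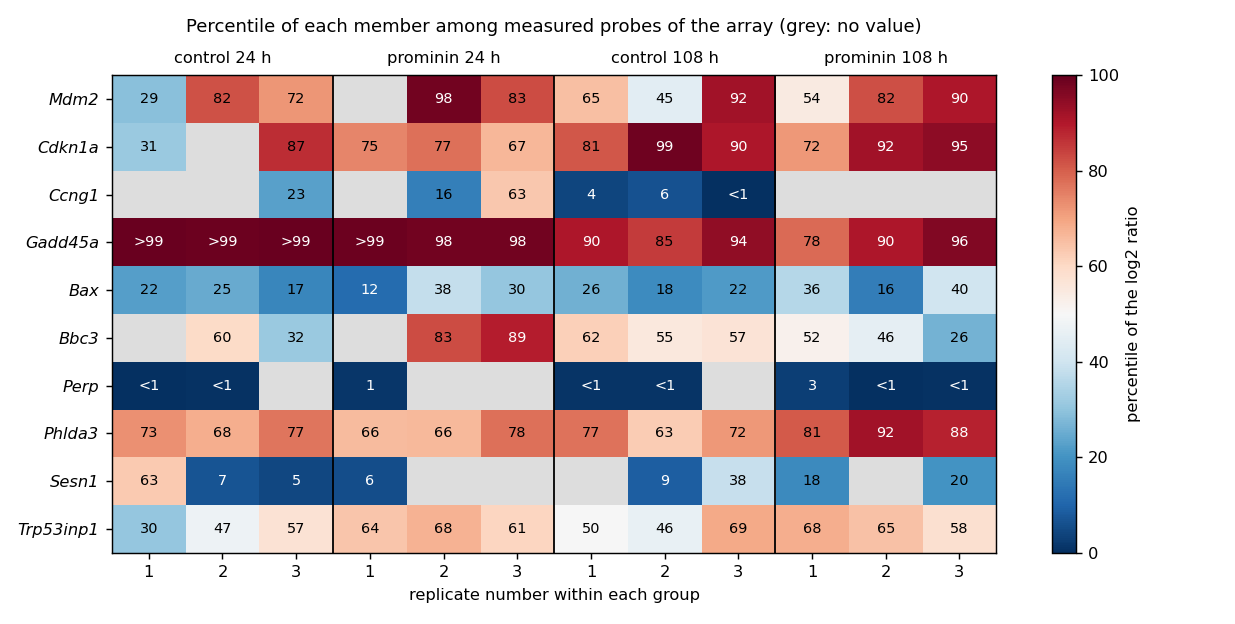
Percentile of the log2 ratio of each member among all measured probes of the same array, for 12 arrays in 4 groups; grey cells had no value. Gadd45a is at 98.2 or above on all 24 h arrays and between 78.3 and 96.1 at 108 h, and Perp never exceeds 2.85.

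The comparison at 24 h asked whether p53 targets differed early after prominin-1 was introduced. No member passed the test, and none of the 9155 probes did (0.0% called, limma adjusted p; 419 probes, 4.58%, had an unadjusted p under 0.05, with 1 member, Bbc3, among them). Of the 7 tested members, 4 lay higher in prominin cultures and 3 lower, with a median difference of 0.59, where 46.0% of all probes lay higher and their median was −0.10. With no centring 6 lay higher and 1 lower, since that scaling moved the median of all probes to 0.58. The difference was 2.18 for Bbc3 (SE 0.92, limma adjusted p = 0.998, 2 arrays in each group) and 2.04 for Mdm2 (SE 1.16, limma adjusted p = 0.998, 3 and 2 arrays). With the exact zeros kept these were 1.24 and 1.38. Leaving out control 24 h replicate 3 gave 1.41 for Bbc3, and for Mdm2 the difference was 1.24 without control 24 h replicate 1. Of the prominin arrays at 24 h, leaving out replicate 2 gave 0.82 for Mdm2 and leaving out replicate 3 gave 3.26. Bbc3 was the 1 member that was higher without overlap, beside 6.49% of all probes, and its groups did not overlap on any of the 5 scales tried. With 2 values in each group such a separation arises more readily than with 3, and that share mixes both cases. Those scales left out the array of each group on which Bbc3 was listed at exact 0. With these zeros kept, its groups overlapped in the centred values. Gadd45a lay 0.92 lower, a difference of −0.92 (SE 0.55, limma adjusted p = 0.998), without overlap, as 9.98% of all probes did; its groups overlapped as deposited and when centred on all measured probes. Cdkn1a (0.59, SE 1.18), Trp53inp1 (0.74, SE 0.64), Phlda3 (−0.41, SE 0.54; 0.26 with no centring) and Bax (−0.03, SE 0.68; 0.65 with no centring, 0.30 centred on all measured probes and 0.22 after quantile normalization) differed by less than 1.5 SE.

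At 108 h the comparison asked the same after longer culture, and again no member and no probe was called (0.0% of 9155, limma; 624 probes, 6.82%, at an unadjusted p under 0.05, with 1 member, Phlda3, among them). Of the 7 members, 4 lay higher in prominin cultures and 3 lower with a median of 0.44, beside 50.1% of all probes higher, but with no centring 1 lay higher and 6 lower, where the median of all probes moved to −1.07. Phlda3 had a mean of 3.32 ± 0.51 (SD, n = 3) with prominin and 1.87 ± 0.50 (n = 3) without, a difference of 1.44 (SE 0.54, limma adjusted p = 0.717, unadjusted p = 0.0219). It was the 1 member higher without overlap, as were 7.85% of all probes, and was 0.37 with no centring, where the groups overlapped. Beside these values, the erythroid marker list had a median of −5.74 to −5.16 in controls and −4.73 to −2.36 in prominin cultures at 108 h, without overlap, and its part in the result was not tested. The death genes Bbc3 (−0.93, SE 0.75; −2.0 with no centring) and Bax (0.52, SE 0.68; −0.56 with no centring) had differences of opposite sign on the centred scale and of the same sign without centring. The arrest genes Cdkn1a (−0.79, SE 1.06) and Gadd45a (−0.04, SE 0.55) and the feedback gene Mdm2 (0.44, SE 1.04) lay within about 1 SE of no difference. So did the stress gene Trp53inp1 (0.63, SE 0.64), all on the centred scale. With no centring the differences were −1.86 for Cdkn1a, −1.12 for Gadd45a, −0.64 for Mdm2 and −0.45 for Trp53inp1.

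The interaction sets the prominin difference at 108 h against that at 24 h. No member and no probe was called (0.0% of 9155 by limma; 545 probes, 5.95%, at an unadjusted p under 0.05, with 2 members among them). Of the 7 members 3 had a positive and 4 a negative value, where 51.5% of all probes were positive. Bbc3 had a value of −3.11 (SE 1.19, limma adjusted p = 0.817; −4.87 with no centring), since it lay 2.18 higher in prominin cultures at 24 h and 0.93 lower at 108 h (−0.93). Phlda3 had the opposite pattern with 1.86 (SE 0.77, limma adjusted p = 0.817), but 0.10 with no centring. For the other 5 members the interaction was −1.61 (SE 1.56, Mdm2) to 0.88 (SE 0.77, Gadd45a; −0.87 with no centring).

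**Figure D3:**
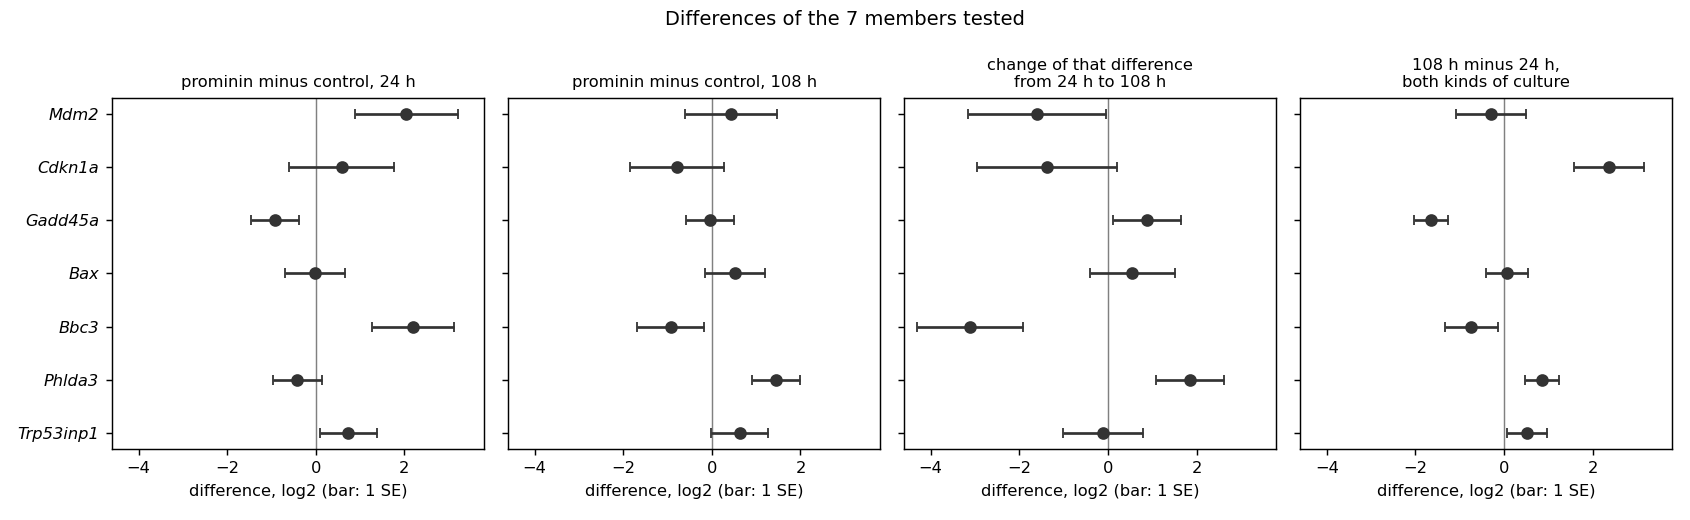
Fitted differences (points) and 1 SE (bars) on the log2 scale for the 7 tested members in 4 comparisons, on a common horizontal scale. None passed the test; the points farthest from 0 relative to their SE are Gadd45a (−1.65) and Cdkn1a (2.37) with time.

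With culture time, over control and prominin cultures together, the arrest genes Cdkn1a and Gadd45a had opposite signs: Cdkn1a lay 2.37 higher at 108 h (SE 0.79) and Gadd45a 1.65 lower, a difference of −1.65 (SE 0.39). Neither passed the test over all probes (limma adjusted p = 0.35 and 0.187, unadjusted p = 0.013 and 0.0012). In this comparison limma called 5 of 9155 probes (0.0546%; 4 higher, 1 lower), none a member: Hba-a1, Apoe, Zfp455, Col5a3 and a probe without a symbol, named here because they are so few. At an unadjusted p under 0.05 stood 3 of the 7 members (Cdkn1a, Gadd45a and Phlda3), where 9.70% of all probes did. Of the 7, 4 lay higher and 3 lower (median 0.06; 48.3% of all probes higher), and 3 higher and 4 lower with no centring.

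Gadd45a was the steadier of the pair. Its 6 arrays at 24 h and 6 at 108 h did not overlap in the centred values, in the deposited values (3.13 to 4.44 against 0.893 to 2.68), after quantile normalization (3.73 to 5.46 against 0.76 to 2.85) or in percentile (98.2 to 99.5 against 78.3 to 96.1). Among all probes 0.754% were lower at 108 h without overlap in the centred values. The difference was −2.09 in controls (5.80 to 3.71, n = 3 and 3) and −1.21 in prominin cultures (4.87 to 3.66, n = 3 and 3). It was past the threshold in 2 alternatives, when only probes with 3 values in every group were tested (limma adjusted p = 0.0482) and without moderation of the variance (0.0435), and in none of the others (up to 0.53). No Gadd45a value was a ratio of small whole numbers.

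Cdkn1a rested more on its scale and on single arrays. The difference was 3.06 in controls (1.17 to 4.23, n = 2 and 3) and 1.69 in prominin cultures (1.75 to 3.44, n = 3 and 3). An exact permutation test of this gene alone, two-sided, with the times exchanged within each kind of culture, gave p = 0.01. It had 200 arrangements, too few for a much smaller p. The gene was picked with the separation of the 2 times known, so that p restates it. The p was 0.045 with no centring, 0.02 when centred on all measured probes and 0.065 after quantile normalization. Although 1.10% of all probes were higher at 108 h without overlap in the centred values, the Cdkn1a groups overlapped as deposited, centred on all measured probes, after quantile normalization and in percentile (31.3 to 87.0 against 71.5 to 98.8). Leaving out control 108 h replicate 2, the highest array, gave 1.75, and leaving out control 24 h replicate 1, the lowest, gave 1.70. No Cdkn1a value was a ratio of small whole numbers.

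**Figure D4:**
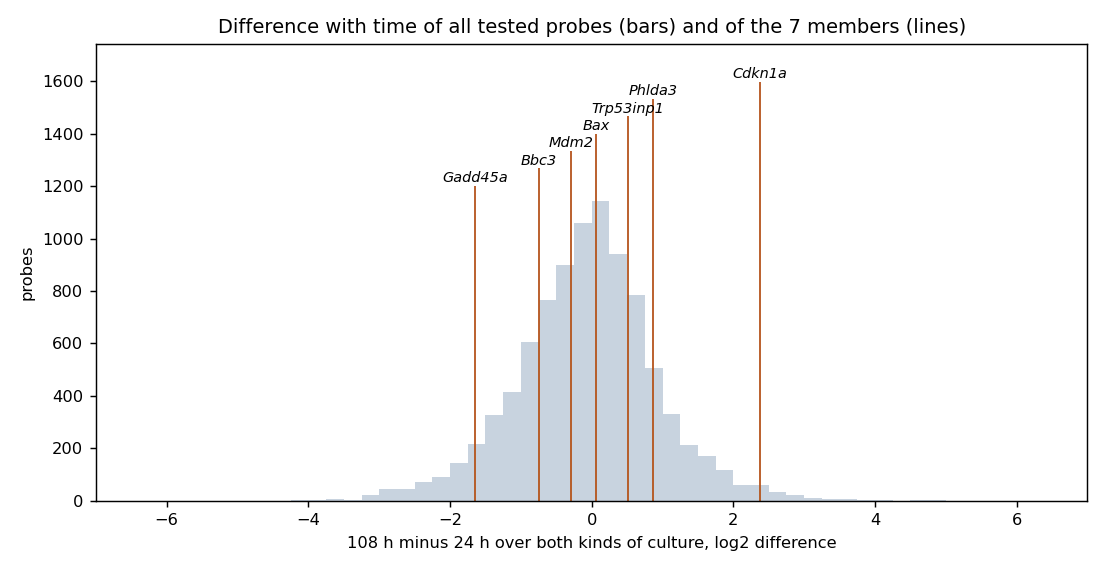
Distribution of the difference between 108 h and 24 h (log2, horizontal axis) over 9155 tested probes (bars, number of probes) with lines at the 7 tested members; line heights only separate the names. Cdkn1a (2.37) lies at percentile 98.7 of all probes and Gadd45a (−1.65) at 5.81, with the other 5 between −0.74 and 0.86.

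The other members had smaller differences with time. Phlda3 lay 0.86 higher (SE 0.39, limma adjusted p = 0.499), made up of −0.07 in controls and 1.79 in prominin cultures. Trp53inp1 (0.51, SE 0.45), Bbc3 (−0.74, SE 0.60), Mdm2 (−0.29, SE 0.78; 0.04 with the exact zeros kept) and Bax (0.06, SE 0.48; −0.13 with no centring) had limma adjusted p from 0.743 to 0.982. For Mdm2 the difference was 0.51 in controls and −1.10 in prominin cultures, and for Bbc3 0.81 and −2.30, so each mean over both kinds of culture joins values of opposite sign. Neither interaction passed the test.

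Genes that p53 is known to lower, most of them cell division genes that it silences by way of p21, mostly lay lower at 108 h, relative to the median probe. Among its 16 tested probes (15 genes), 12 were lower and 4 higher, where 48.3% of all probes were higher. Their median was −1.10 beside −0.04 for all probes, and none was called, whereas 7 of the 16 had an unadjusted p under 0.05, beside 9.70% of all probes. The median remained below 0 under every scaling (−1.26 with no centring, −0.79 after quantile normalization, −1.26 centred on all measured probes). By array, the median of the measured genes of the list was −2.06 to −1.32 at 24 h and −3.07 to −2.32 at 108 h, without overlap, but −3.82 to −2.46 and −5.38 to −3.65 as deposited, with overlap. The genes behind these medians differ between arrays. Of the 22 probes of the list, 6 had a value on all 12 arrays, and these 6 were all lower at 108 h (median −1.14). Cdk1, the kinase that drives mitosis, had the smallest p (−3.16, SE 0.72, limma adjusted p = 0.181). Its values ran from −2.37 to −0.32 at 24 h and from −7.72 to −3.48 at 108 h. None of the 9 cell type and interferon marker lists separated the 2 times by its array medians (neural stem 3.03 to 4.33 at 24 h and 1.67 to 3.57 at 108 h, astrocytes 3.45 to 6.42 and 4.28 to 7.55, interferon genes −0.12 to 0.94 and −0.93 to 2.66). By probes, however, several of these lists had differences with time beside those of the division genes. The erythroid list had a median of 2.16 (3 of 4 higher, 1 called, Hba-a1), the fibroblast list 0.88 (3 of 5 higher) and the neural stem list −0.48 (4 higher, 10 lower), and 3 of 5 oligodendrocyte probes had an unadjusted p under 0.05 (median 0.05). Their part in the result was not tested. The larger share of small whole-number ratios at 24 h, given above, goes with the same split of the arrays.

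**Figure D5:**
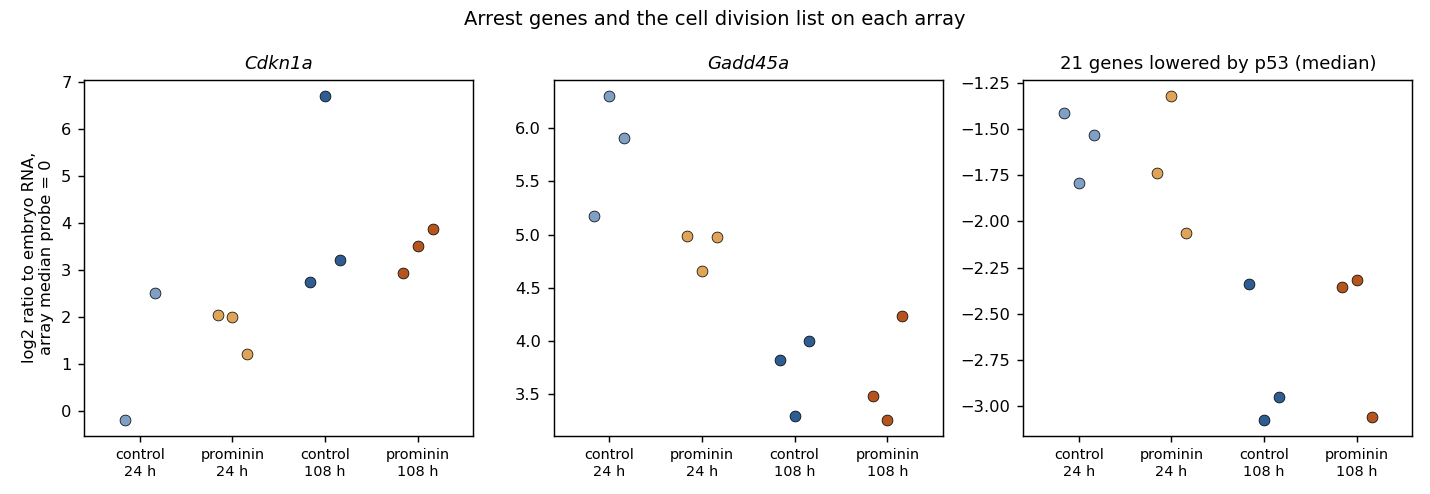
Centred log2 ratio of Cdkn1a and Gadd45a and the median of the list lowered by p53, with 1 point per array in 4 groups. Vertical scales differ, and each list median covers the genes measured on that array. At 108 h Cdkn1a is at 2.76 to 6.71, Gadd45a at 3.26 to 4.24 and the list at −3.07 to −2.32, each apart from its 24 h values on this scale.

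Between prominin and control cultures, among the genes lowered by p53 the median difference was −0.12 at 24 h (6 higher, 10 lower) and 0.13 at 108 h (9 and 7), none called; the checkpoint kinase gene Bub1 lay 2.35 higher at 108 h (SE 0.97, limma adjusted p = 0.717). At 24 h Kif23, a kinesin of cell separation, lay 1.99 higher (SE 1.47) and the replication helicase gene Mcm2 had a difference of −0.45 (SE 0.52). Of the interaction values, Bub1 (2.37, SE 1.38) and the proliferation gene Mki67 (1.86, SE 1.15) came first in 1 direction and Mcm6 (−2.22, SE 1.87) and Kif23 (−2.28, SE 2.08) in the other.

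A further 42 targets of p53 were listed, of which 37 had a probe and 21 were tested with 22 probes. None was called in any of the 4 comparisons, and the medians were −0.17 at 24 h (10 higher, 12 lower), 0.00 at 108 h (11 and 11), 0.12 for the interaction (12 and 10) and 0.16 with time (13 and 9; −0.03 with no centring). At 24 h the death receptor gene Fas lay 1.81 higher (SE 1.09) and Steap3, a metalloreductase gene, 1.46 (SE 1.83), whereas the difference was −1.0 for the growth factor gene Tgfa (SE 0.55) and −1.75 for the DNA repair gene Ddb2 (SE 0.98), all with a limma adjusted p of 0.998. Thbs1, which encodes the matrix protein thrombospondin-1, had a difference of −3.93 with time (SE 1.09, limma adjusted p = 0.299; n = 2 arrays in each group), with 24 h values of −3.22 to 3.04 and 108 h values of −4.82 to −3.35. At 108 h the prominin minus control difference of Thbs1 was −1.18 (SE 1.53). In the interaction Tgfa (1.89, SE 0.78), the zinc finger gene Zmat3 (1.49, SE 1.19), Fas (−2.33, SE 1.54) and Steap3 (−2.03, SE 2.37) came first, none past the threshold.

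Of 21 genes that act on p53, 20 had a probe and 16 were tested with 17 probes, and again none was called. The median was −0.13 at 24 h (6 higher, 11 lower), 0.08 at 108 h (10 and 7), 0.20 for the interaction (10 and 7) and −0.14 with time (7 and 10). Rchy1, a second ubiquitin ligase for p53, had a mean at 24 h of 1.67 ± 0.69 (SD, n = 3) with prominin and −0.26 ± 0.78 (n = 3) without (1.93, SE 0.58, limma adjusted p = 0.998). Its interaction was −2.23 (SE 0.83). The acetyltransferase gene Ep300 (−1.87, SE 0.77; interaction 1.95) and the deacetylase gene Sirt1 (−1.03, SE 0.75) had negative differences at 24 h. At 108 h Rpl11 (1.23, SE 0.66, with an interaction of 1.71, SE 0.93) and Rpl5 (1.13, SE 0.64), ribosomal proteins that hold back Mdm2, lay higher. In prominin cultures Rpl11 then ran from −0.55 to 1.64 (SD 1.25) and Rpl5 from −0.51 to 1.65 (SD 1.19). In controls they ran from −1.23 to −0.86 (SD 0.19) and from −1.16 to −0.61 (SD 0.28). The damage kinase gene Atr (−1.47, SE 0.72) and Sirt1 (−1.36, SE 0.67) lay lower at 108 h. The ligase gene Cop1 had an interaction of −1.57 (SE 1.16).

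With no centring the list medians between prominin and control cultures followed that of all probes, to 0.51 at 24 h, −1.08 at 108 h and −1.64 for the interaction among the further targets. They were 0.54, −1.0 and −1.55 among the genes that act on p53, and 0.55, −0.85 and −1.39 among the genes lowered by p53. The signs of these lists in the prominin comparisons therefore depend on the scaling.

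The genes whose pattern over the 11 arrays with a Cdkn1a value was most like that of Cdkn1a were Dhx33 (Pearson r = 0.924, Spearman rho = 0.80), Esd (0.888, 0.582) and Emc4 (0.886, 0.827), out of 4229 probes with 1 symbol and a value on all arrays. Without control 108 h replicate 2 their r was 0.847, 0.74 and 0.831. Of the members, Gadd45a had r = −0.663 with Cdkn1a, Bax −0.221, Trp53inp1 0.183 and Phlda3 0.0408. The points share the embryo reference, the centring and the 2 culture times, and these values are descriptions without a test.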

How the data were processed

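The authors' deposited table gives log2 ratios of the 2 dyes for 21738 probes on 12 arrays. No label names the scanner, the image analysis, the normalization, the log base or which dye is on top. The base was read from the many values that equal log2 of small whole-number ratios. Exact zeros (4986 to 8794 cells an array) and the top value 16.61 (32 to 2540 cells) were taken as codes and set to missing. From each array the median over the 4532 probes with a value everywhere was subtracted. These medians ran from −2.59 to −0.84. A fit needed 2 values per group, which 9155 probes had. They were fitted with limma 3.58.1 in R 4.3.3, with 1 mean per group, moderated variance, Benjamini-Hochberg adjustment over all probes and a threshold of 0.05. The fit was also run on simulated data with planted differences, as a check of the code. Its power for differences of the size reported here is not given.

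Of the probes, 16620 had 1 symbol, 113 several, and 324 more were named by RefSeq accession. Such annotation can be old. Members and lists were chosen with earlier results of these data known. All members are named, and from the other lists up to 2 genes in each direction with the smallest p whose groups do not overlap (for the interaction, by p alone). Array intensities were not analysed here, so the number of arrays sets the precision. Alternatives covered scaling, codes, filters, dim ratios, variance, probes averaged to genes, the groups in the fit, the replicate number as a block and each array left out.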

Additional observations from a re-analysis of the deposited data

How the results depend on the processing

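None of the alternatives brought a member past the threshold in the prominin comparisons or the interaction; with time, Gadd45a passed when 3 values were asked of every group and without moderation of the variance, so the count of members was 1 in both, and 0 otherwise. Of 334 member differences under alternatives other than leaving out an array, 319 kept their direction and side, 2 newly passed and 13 turned. With no centring these were, at 24 h, Bax (0.65) and Phlda3 (0.26); at 108 h, Mdm2 (−0.64), Bax (−0.56) and Trp53inp1 (−0.45); in the interaction, Bax (−1.21) and Gadd45a (−0.87); and with time, Bax (−0.13). Bax also turned when centred on all measured probes (0.30 at 24 h, −0.12 with time) and after quantile normalization (0.22 at 24 h), and Mdm2 with time turned to 0.04 with the zeros kept, with or without the top code (0.0385). The cause was not tested.

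Called probes were 0 at 24 h, but 1 with the zeros kept, 25 with both codes kept and 1 after averaging to genes; 0 at 108 h, but 1 with the zeros kept; and 0 in the interaction, but 17 with both codes kept. With time the count of 5 became 26 with both codes kept, 34 with 3 values asked of every group, 2 with 1 value, 22 without the ratios of small whole numbers, 36 without moderation, 11 with a variance trend and 2 with the replicate block. With the replicate number as a block no member was called. The difference of Cdkn1a with time was then 2.14 (limma adjusted p = 0.423). Correlations of deviations between arrays of the same number ran from −0.0666 to 0.122, with 3 of 18 over 0.1. These small values do not settle whether the numbers pair the arrays. The exact permutation test of Cdkn1a gave 1.93 (p = 0.065) after quantile normalization.

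Leaving out 1 array in turn (with an arm of 1 value assumed to vary like the others) gave 0 to 2 called probes at 24 h, 0 to 1 in the interaction and 2 to 4 with time, and no member in any comparison. Of these 336 member differences 23 turned. The ranges were, at 24 h, −0.76 to 1.93 for Cdkn1a and −0.40 to 0.46 for Bax; at 108 h, −1.52 to 0.45 for Cdkn1a, −0.27 to 1.26 for Mdm2 and −0.33 to 0.16 for Gadd45a; in the interaction, −0.69 to 0.29 for Trp53inp1; and with time, −0.90 to 0.32 for Mdm2 and −0.18 to 0.36 for Bax.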
